A study of Drosophila melanogaster with 596 samples.

Results

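A set of 10 genes known for their roles in Drosophila glia were followed through the female head transcriptome, chosen by name: repo, Eaat1, Eaat2, Gs2, Gat, moody, nrv2, alrm, Gli and Nrx-IV. Of these 10 genes, 6 had a row among the 7422 genes of the deposited values: Eaat2 (CG3159, chromosome arm 2L), Gs2 (CG1743, X), Gat (CG1732, chromosome 4), moody (CG4322, X), nrv2 (CG9261, 2L) and Nrx-IV (CG6827, 3L). The other 4 genes, which include repo, the transcription factor that marks most lateral glia, and alrm, an astrocyte marker, were not analysed here, so what follows is about 6 genes and about neither of those markers.

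Each sample was RNA from about 300 pooled heads of females, 3 to 5 days old, from a single cross between a recombinant inbred line of population A (pA, the mother) and one of population B (pB, the father) of the Drosophila Synthetic Population Resource, hybridised to an expression array. The 596 crosses fall into pA1 by pB2 (63.4% of the crosses) and pA2 by pB1 (36.6%), and all are heterozygous offspring of untreated lines raised on standard media. The values used here hold a single set per cross, so the spread between repeats of a cross was not measured here, and p-values measure association across crosses. Whole heads hold brain, eye, fat body and muscle beside glia, and in such bulk RNA fewer glial cells and less RNA per glial cell cannot be told apart.

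Glia keep the fly brain working in several ways. Surface glia form the blood-brain barrier, in which the G protein-coupled receptor moody regulates the septate junctions that seal the layer; Nrx-IV (neurexin IV) is a cell adhesion protein of those junctions, and nrv2 encodes a glial beta subunit of the sodium pump that is also needed there. Astrocyte-like and other glia clear neurotransmitters: Gat carries GABA, Eaat2 is a high-affinity transporter of the excitatory amino acid transporter family, and Gs2, a glutamine synthetase, turns glutamate into glutamine for return to neurons. Several of these genes are also expressed outside glia, Nrx-IV in epithelia for example, so a value from whole heads is not a value from glia alone.

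The deposited values are residuals set onto a normal scale separately for each transcript, with the subpopulation effect and 10 principal components already removed. They carry no unit and no expression level, and they rank the crosses for one gene at a time. The 6 genes therefore could not be ordered by level, and the means of the subpopulation crosses could not be compared. The lowest and highest values of the 6 genes over all crosses were -3.15 and 3.15, a range set by the normal scale, and the 12 medians by gene and subpopulation cross lay between -0.058 and 0.060. Of the 2 groups, pA2 by pB1 held the narrower values for Gat (SD 0.93, from -2.81 to 2.30) and pA1 by pB2 the wider ones (SD 1.04, from -3.15 to 3.15), yet the ranges overlapped almost entirely. The spread of Gat did not pass the limma test on absolute deviations (p = 0.0464, adjusted p = 0.148), nor did that of any of the other 5 genes (adjusted p from 0.221 to 0.904). In the same test 19.3% of all genes differed in spread. What remained to ask was which crosses were high together: whether the glial genes rose and fell with each other, and with which other genes.

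Gat was the glial gene with the most correlations to the others. Crosses with a Gat value above average also tended to have higher values of Gs2 (r = 0.34), nrv2 (r = 0.28), moody (r = 0.19) and Nrx-IV (r = 0.11). Eaat2 reached an adjusted p under 0.05 only with Nrx-IV. Of the 15 pairs of glial genes, 6 passed an adjusted p of 0.05 in the limma fits over all genes, all 6 with a positive correlation, and 4 of the 6 include Gat. For comparison, a gene fitted on Gat passed with a positive r in 16.1% of 7421 genes and with a negative r in 11.7%. The positive and negative shares were 11.2% and 12.7% on Eaat2, 7.05% and 8.02% on Gs2, 22.1% and 10.9% on moody, 4.65% and 4.43% on nrv2, and 9.74% and 5.85% on Nrx-IV. Calls in these fits are therefore common, and the size of r says more than the call.

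Gat and Gs2 had the largest correlation of the 15 pairs. Their values lay on the same side of 0 in 62.4% of the 596 crosses. Pearson's r was 0.34 (95% interval from 0.26 to 0.40) and Spearman's rho was 0.32, with a permutation p of 1e-05 for each, the smallest that 100000 permutations can give, and the limma adjusted p was 3.04e-13. Leaving out the 2 crosses most distant from the median Gs2 value left r at 0.34. The correlation was 0.33 among the pA1 by pB2 crosses and 0.35 among those of pA2 by pB1, so each group of crosses showed it at about the same size.

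Gat and nrv2 came next. They lay on the same side of 0 in 61.2% of the crosses, with r = 0.28 (interval from 0.21 to 0.35), rho = 0.30, a permutation p of 1e-05 for each and an adjusted p of 4.11e-09. Here too the groups were alike, with r = 0.29 for pA1 by pB2 against 0.27 for pA2 by pB1, and r was 0.30 once the 2 crosses most distant from the median Gat value were left out. Both pairs, transporter with synthetase and transporter with sodium pump subunit, passed under every alternative that was run.

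**Figure D1:**
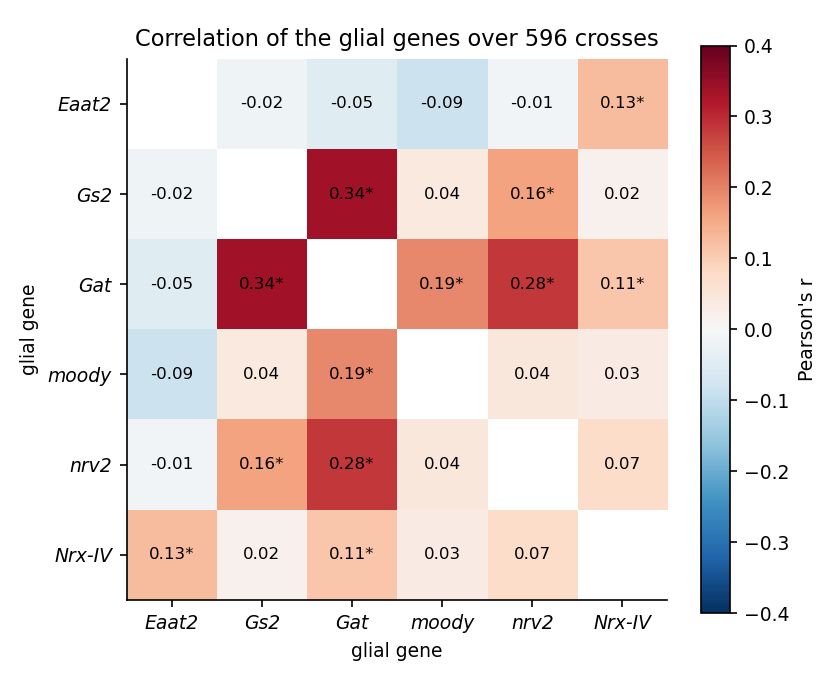
Pearson's r between each pair of the 6 glial genes over 596 crosses, as colour and number; both axes list the genes, and a star marks an adjusted p under 0.05. The row of Gat holds 4 of the 6 starred pairs, led by Gs2 (0.34) and nrv2 (0.28). Eaat2 has a star only with Nrx-IV (0.13) and r from -0.085 to -0.010 with the others.

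**Figure D2:**
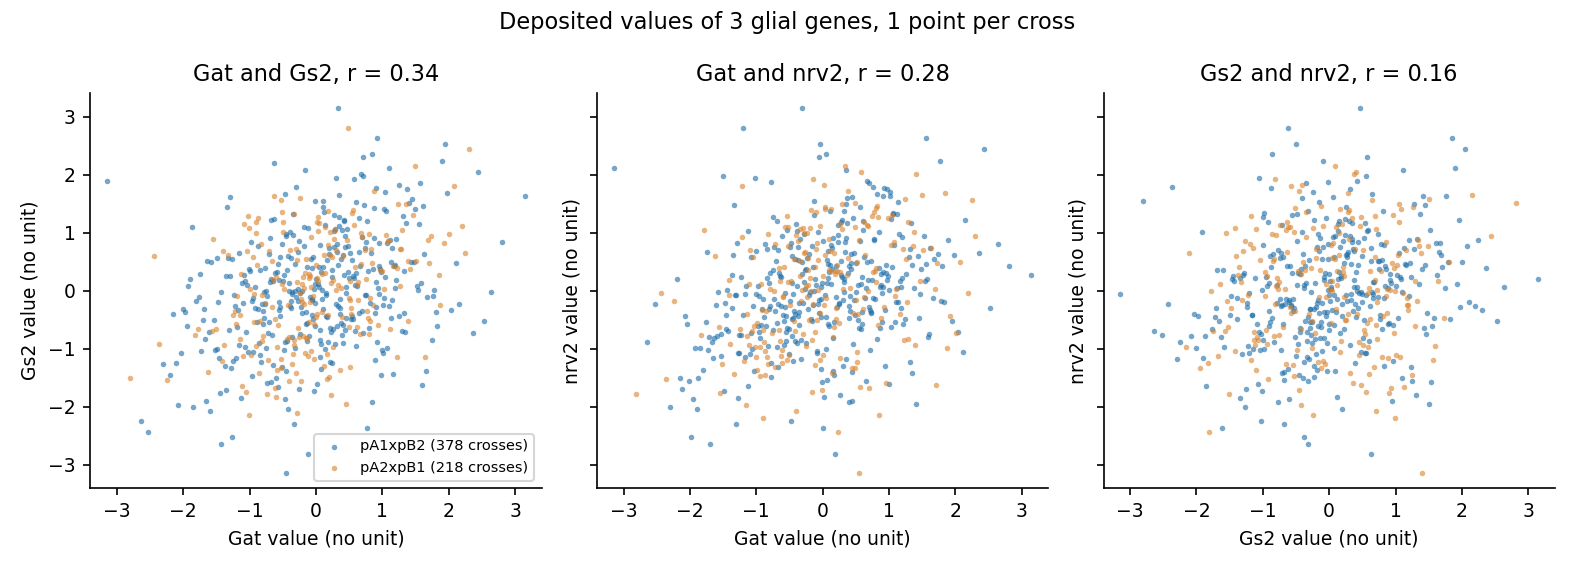
Deposited values (no unit) of Gat, Gs2 and nrv2 against each other, 1 point per cross, crosses of pA1 by pB2 in blue and of pA2 by pB1 in orange. The clouds lean upward in each panel, with r = 0.34, 0.28 and 0.16, and the colours overlap.

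The other 4 pairs that passed had smaller correlations. Gs2 and nrv2 had r = 0.16 (interval from 0.082 to 0.24; rho = 0.17; permutation p = 8e-05 for r and 4e-05 for rho; adjusted p = 0.00325). The correlation of this pair was 0.21 for pA1 by pB2 against 0.070 for pA2 by pB1, where the adjusted p was 0.616. When the value of Gat was held as a covariate, a choice made after the correlations had been seen, r fell to 0.074 and the adjusted p was 0.285. Gat and moody had r = 0.19 (interval from 0.11 to 0.27; rho = 0.17; permutation p = 2e-05 and 6e-05; adjusted p = 5.82e-05), with r = 0.22 and 0.12 in the groups of crosses. The pair missed the threshold in pA2 by pB1 alone (adjusted p = 0.322) and after 10 further principal components were removed (r = 0.12, adjusted p = 0.0549). Eaat2 and Nrx-IV had r = 0.13 (interval from 0.048 to 0.21; rho = 0.095; permutation p = 0.00196 and 0.0204; adjusted p = 0.0190). It missed the threshold on ranks (adjusted p = 0.0997), with 10 further components removed (0.171) and in pA2 by pB1 alone (0.573). Gat and Nrx-IV had r = 0.11 (interval from 0.031 to 0.19; rho = 0.12; permutation p = 0.00673 and 0.00308; adjusted p = 0.0446). The pair missed the threshold in each group of crosses alone, with r = 0.074 for pA1 by pB2 (adjusted p = 0.370) and 0.18 for pA2 by pB1 (adjusted p = 0.169), and with 10 further components removed r was -0.016 (adjusted p = 0.871), so the direction itself was lost.

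Over the 9 pairs that did not pass, r lay between -0.085 and 0.073. The most negative was Eaat2 with moody (interval from -0.16 to -0.0048; rho = -0.076; permutation p = 0.0381 and 0.0643; adjusted p = 0.114), and this pair passed only after 10 further components were removed (r = -0.13, adjusted p = 0.0290). The intervals of the 9 pairs reached from -0.164 to 0.152. Moody and Nrx-IV, which act at the same barrier, had r = 0.033 (interval from -0.047 to 0.11), and moody and nrv2 had r = 0.044 (from -0.036 to 0.12). Eaat2, the other transporter of the set, had r = -0.018 with Gs2 and -0.049 with Gat. With 10 further components removed, r of Eaat2 with Gat was -0.12 (limma adjusted p = 0.0520).

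The median r over the 15 pairs was 0.044 with a jackknife SE of 0.038, beside a median of 0.0033 over all pairs of the 7422 genes (quartiles -0.051 and 0.059). The first principal component of the 6 took up 26.7% of the variance (jackknife SE 1.08). An even share would be 16.7%, which is the lowest value a first component can take. The share for other sets of 6 genes was not computed. Its weights were 0.63 for Gat, 0.50 for Gs2, 0.47 for nrv2, 0.29 for moody, 0.19 for Nrx-IV and -0.07 for Eaat2, the same order as their correlations with Gat.

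The slope of 1 glial gene on another did not pass the test of a difference between the subpopulation crosses in any of the 15 pairs (limma interaction, adjusted p from 0.451 to 0.991), and 1 pair had an unadjusted p under 0.05. That pair was Gs2 and moody, with r = 0.11 for pA1 by pB2 against -0.11 for pA2 by pB1 (p = 0.0103, adjusted p = 0.451). Among all genes, the share whose slope differed was 0% on Eaat2, Gs2, moody and Nrx-IV, 0.202% on Gat and 0.930% on nrv2. At an unadjusted p under 0.05 the counts of 7421 genes were 1058 on nrv2, 841 on Gat, 670 on moody, 596 on Gs2, 528 on Nrx-IV and 405 on Eaat2.

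The genes that tracked each glial gene most closely were then read out, the 2 largest positive and 2 largest negative correlations for each. All 24 such relations had the same sign in both groups of crosses, and a permutation p of 1e-05 for r and for rho. They were chosen as the extremes over these same crosses, so neither the shared sign nor the permutation p is independent support. For Gat the closest were Tsp5D (CG4690), a tetraspanin, with r = 0.59 (rho = 0.60, adjusted p = 4.09e-44) and Balat (CG3790), a transporter of beta-alanine, with r = 0.59 (rho = 0.59, adjusted p = 6.81e-44). The correlation of Tsp5D with Gat was 0.59 for pA1 by pB2 against 0.60 for pA2 by pB1, and that of Balat 0.59 in each. No glial gene came as close to Gat as these, the best of them, Gs2, reaching 0.34. On the negative side stood Msp300, a giant protein that links nuclei to the cytoskeleton (r = -0.34, adjusted p = 1.77e-14), and Larp4B, an RNA-binding protein of the La-related family (r = -0.31, adjusted p = 4.91e-12).

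The 10 genes with the largest correlation with Gat, listed after their values were seen, were Tsp5D, Balat, bumpel, CG7509, stumps, CG7888, CG1545, CG31663, CG1537 and wun2, with r from 0.43 to 0.59. Bumpel belongs to the sodium-coupled solute carriers, and stumps is the adaptor of fibroblast growth factor receptor signalling. The 10 genes lie on the X, 2L, 2R, 3L and 3R. None lies with Gat on chromosome 4, which holds only 75 of the 7422 genes. The same 10 genes had r from 0.18 to 0.36 with Gs2 and from 0.22 to 0.33 with nrv2, and all 10 passed in each of those fits. In the fit on moody 8 of the 10 passed with a positive r, on Nrx-IV 1, and on Eaat2 none with a positive r and 4 with a negative one, the lowest at -0.23. As Gat is itself correlated with Gs2 and nrv2, these values are not independent of the pairs above.

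Gs2 shared its closest correlates with Gat. Balat (r = 0.36, rho = 0.36, adjusted p = 5.95e-15) and CG7888 (r = 0.36, rho = 0.34, adjusted p = 6.62e-15) led, and their correlations with Gat were larger still (0.59 and 0.53). The most negative were mib1, a ubiquitin ligase of Notch signalling (r = -0.27, adjusted p = 2.89e-08), and CG8112 (r = -0.27, adjusted p = 3.48e-08). The value for mib1 was -0.13 after 10 further components were removed (adjusted p = 0.0395).

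For nrv2 the closest genes were PLCXD (CG14945), with r = 0.36 (rho = 0.37, adjusted p = 7.36e-15), and ninaC (CG5125), the myosin kinase of photoreceptors, with r = 0.33 (rho = 0.30, adjusted p = 3.86e-12). PLCXD, ninaC and COX4 lie on 2L as nrv2 does. PLCXD and ninaC differ in what else they correlated with. PLCXD also had r = 0.37 with Gat, whereas ninaC had r = -0.19 with Gat. Negative correlates were COX4, a subunit of cytochrome c oxidase (r = -0.28, adjusted p = 6.72e-09), and lva, a Golgi protein (r = -0.25, adjusted p = 5.9e-07).

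Eaat2 had a different company. Gbeta76C, the G protein beta subunit of phototransduction (r = 0.35, rho = 0.33), and Pis, the phosphatidylinositol synthase (r = 0.35, rho = 0.34), each had an adjusted p of 3.28e-14. Gs1, the mitochondrial glutamine synthetase, was the most negative (r = -0.30, rho = -0.30, adjusted p = 1.91e-10), followed by Fer1 (r = -0.28, adjusted p = 2.99e-09). Gs1 lies on 2L as Eaat2 does, with 53 measured genes between them. Of these 4 genes only Gs1 kept its size when 10 further components were removed (r = -0.36), while Gbeta76C fell to 0.13, Pis to 0.13 and Fer1 to -0.012 (adjusted p = 0.912).

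Nrx-IV was closest to trr, a histone methyltransferase (r = 0.36, rho = 0.35, adjusted p = 5.43e-15), and PMCA, the plasma membrane calcium pump (r = 0.30, rho = 0.31, adjusted p = 1.65e-09). The value for PMCA was 0.19 with 10 further components removed. Its negative correlates were ClpX, a mitochondrial chaperone (r = -0.28, adjusted p = 1.89e-08), and Fas2, a neural cell adhesion protein (r = -0.27, adjusted p = 3.77e-08).

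**Figure D3:**
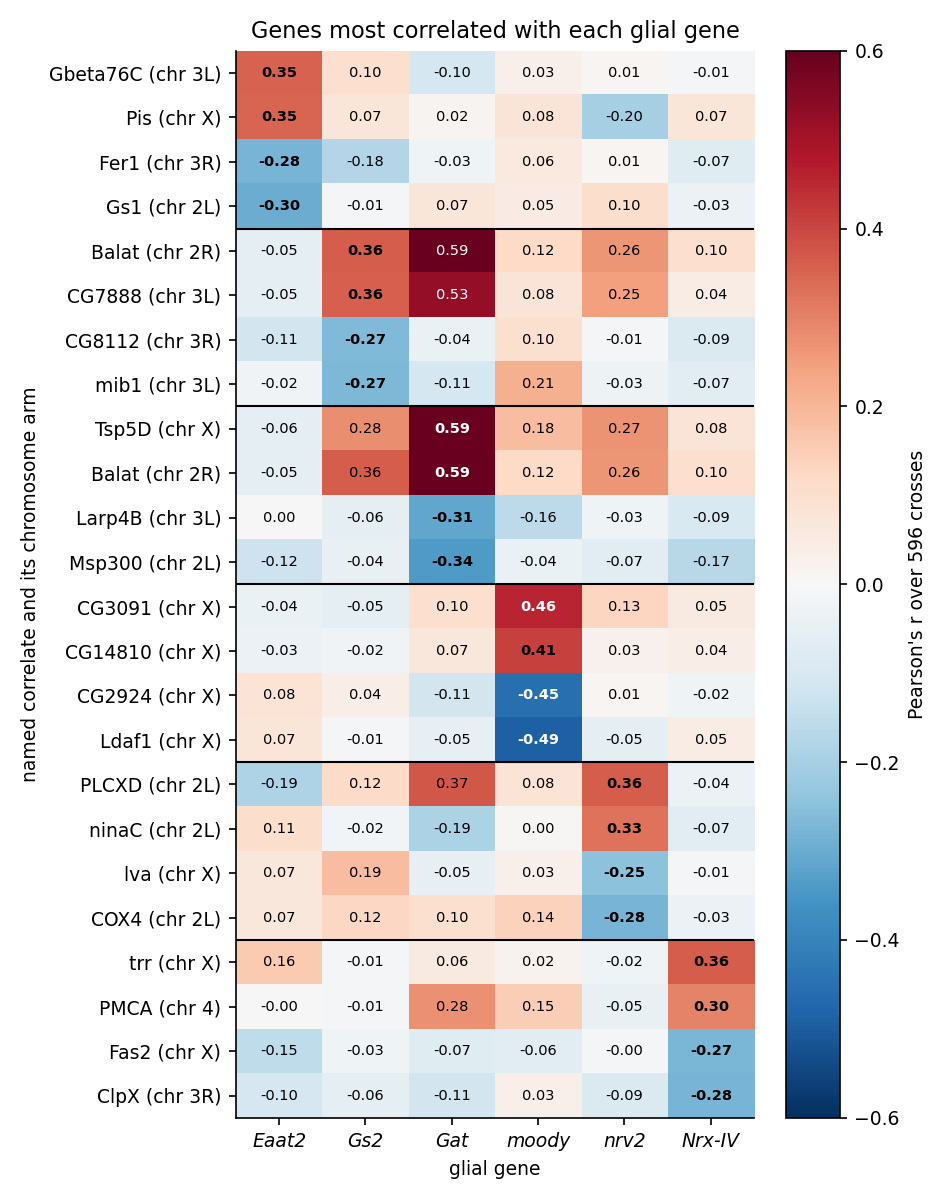
Pearson's r over 596 crosses of the 4 genes named for each glial gene (rows, with their chromosome arm) with all 6 glial genes (columns); the bold number is the value by which the gene was chosen. Balat, CG7888, Tsp5D and PLCXD have r from 0.12 to 0.59 with Gs2, Gat and nrv2, while the genes named for Eaat2, moody and Nrx-IV are mostly near 0 outside their own column.

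The 4 named correlates of moody all lie on the X chromosome with moody itself. They were CG3091 (r = 0.46, rho = 0.48), CG14810 (r = 0.41, rho = 0.42), Ldaf1, a lipid droplet protein (r = -0.49, rho = -0.49), and CG2924 (r = -0.45, rho = -0.48), with adjusted p from 2.77e-29 to 1.62e-20. Between moody and these genes lie 31, 26, 12 and 35 measured genes. After 10 further components were removed the values were 0.54 for CG3091, -0.51 for Ldaf1, -0.48 for CG2924 and 0.22 for CG14810. Of the 20 genes with the largest absolute r with moody, 13 lie on the X, against 7 of 20 on the own arm for nrv2, 6 for Eaat2, 4 each for Gs2 and Nrx-IV and 0 for Gat. Of all 7422 genes, 1314 lie on the X, 1339 on 2L, 1374 on 3L and 75 on chromosome 4. The counts for Gs2, Nrx-IV and Gat were thus near the share of all genes on their arm.

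Position was followed further with the 25 measured genes on either side of each glial gene. For moody 29 of these 50 genes passed (17 positive and 12 negative, 58%), against 32.8% of the genes outside the window. For Eaat2 it was 22 of 50 (44%, against 23.7% outside), for Nrx-IV 19 (38%, against 15.4%), for Gs2 16 (32%, against 15%) and for nrv2 7 (14%, against 9.05%). The largest absolute r in a window was 0.49 for moody and between 0.16 and 0.30 for the other 5 genes. Parents of these crosses inherit neighbouring genes together in founder blocks, so nearby genes are not independent of each other.

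Gat sits on the small chromosome 4, and its neighbours there moved largely the same way. Of the 74 other measured genes of that chromosome 43 passed in the fit on Gat, 41 with a positive r and 2 with a negative one (58.1%), against 27.5% of the genes on the other arms. The largest was anne at 0.31. With 10 further components removed, 10 of the 74 passed (13.5%, against 12.8% on the other arms), 6 of them positive. The shared direction along chromosome 4 thus did not hold, while the correlations of Gat with Gs2 (0.34), nrv2 (0.35), Tsp5D (0.61) and Balat (0.59) did. The part of the chromosome as a whole in the values of Gat was not tested.

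The nearest measured genes on either side had small correlations. Those that passed were Pph13 with Eaat2 (r = 0.20), GABA-B-R3 with Eaat2 (-0.13), Evi5 with Gs2 (0.12), mav with Gat (-0.13), CG4325 and CG4313 with moody (0.11 and 0.19) and eIF3l with Nrx-IV (-0.13). The remaining neighbours did not pass, among them nrv1, which encodes another beta subunit of the sodium pump and lies next to nrv2 (r = 0.05, adjusted p = 0.465). The others were dlg1 with Gs2 (-0.097), Ekar with Gat (-0.05), l(2)k09022 with nrv2 (0.01) and CAH2 with Nrx-IV (0.06).

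**Figure D4:**
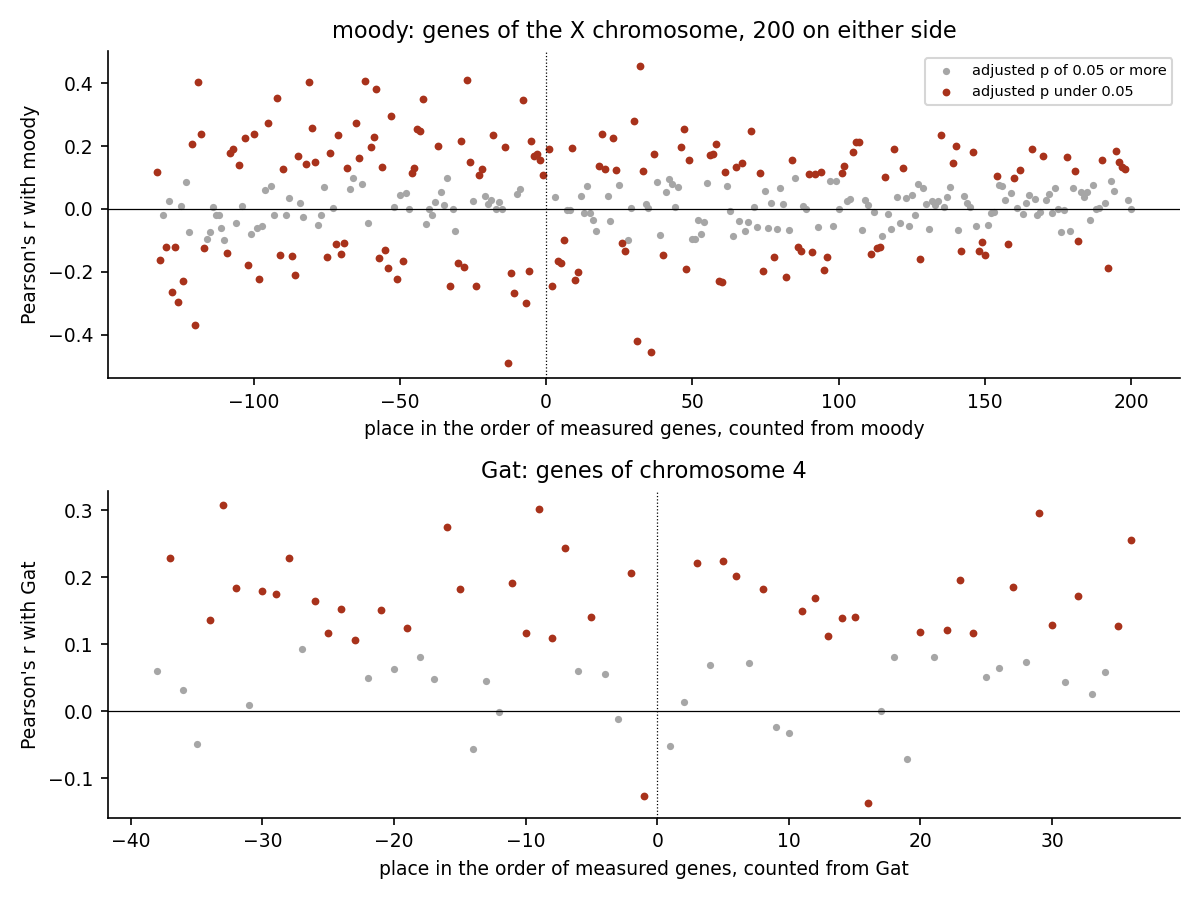
Pearson's r over 596 crosses with moody (top, measured genes of the X up to 200 places away) and with Gat (bottom, the 74 other measured genes of chromosome 4), in gene order, with an adjusted p under 0.05 in red. Around moody r runs from -0.49 to 0.46 with both signs mixed, while around Gat 41 of 43 red points are above 0.

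Founder assignments, which name the founder line that each parent carries at a position, were used for 45 crosses, all of pA1 by pB2. At the nearest listed local eQTL peak of another gene, no glial gene passed the limma F test on founder classes (adjusted over 7422 genes). Peaks listed for the glial gene itself were not used. Moody and Eaat2 had an unadjusted p under 0.05. The limma test draws the variance of each gene toward that of all genes, whereas the shares given here use the gene's own variance. The classes at the peak of CG11596 took an adjusted 54.3% of the variance of moody in 44 crosses (p = 0.000200, adjusted p = 0.212). With only the classes seen in at least 3 crosses, the share for moody was 57.3% in 40 crosses (p = 4.18e-05, adjusted p = 0.0926). The classes at the peak of Ptth took 22.7% of the variance of Eaat2 in 45 crosses (p = 0.00213, adjusted p = 0.554). For Gs2 at the peak of Evi5 (32 crosses) the share was 26.3% (p = 0.233, adjusted p = 0.965). Adjusted shares below 0 were found for nrv2 at meng (25 crosses, adjusted p = 0.999) and Nrx-IV at DEF8 (41 crosses, adjusted p = 0.964). Of all genes, 0.0404% passed at the peak near Eaat2, 0.0269% at that near Nrx-IV and 0% at the other 3. Gat was not fitted, as the peaks used here hold none on chromosome 4.

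Lists of genes around the 6 were read next. In the list of other glial genes, 17 of 29 were measured, and 9 of these passed in the fit on Gat, all positive, where 16.1% of all genes did so. Their median r with Gat was 0.12, beside 0.0093 over all genes. The list was chosen with earlier results of these data known, so these values are not independent support. The 3 genes that passed most often were wun2, a lipid phosphate phosphatase (r = 0.43 with Gat, 0.24 with Gs2, 0.22 with nrv2, 0.16 with moody and -0.18 with Eaat2) and also among the 10 genes closest to Gat, Cyp4g15, a cytochrome P450 (0.35 with Gat, 0.17 with nrv2 and -0.17 with Eaat2), and Inx2, the gap junction innexin (0.32 with Gat, 0.19 with Gs2 and 0.16 with nrv2). The other 6 that passed with Gat were picked out after their values were seen and include axo (0.30), SPARC (0.27), Treh, the trehalase (0.26), and ogre, the innexin partner of Inx2 (0.23). With 10 further components removed 10 of the 17 passed with Gat, all positive, where 12.8% of all genes passed. In pA2 by pB1 alone 6 passed, where 9.53% of all genes did. Over all crosses and without that removal, it was 6 positive and 1 negative of 17 for nrv2 and 4 and 1 for Gs2. For moody it was 4 and 0, for Eaat2 2 and 3, and for Nrx-IV 1 and 0. The positive shares of all genes were 4.65% on nrv2, 7.05% on Gs2, 22.1% on moody, 11.2% on Eaat2 and 9.74% on Nrx-IV. The positive counts on moody and Eaat2 were thus near the share of all genes, and that on Nrx-IV was below it.

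Septate junction genes were measured for 16 of 22. In the fit on Gat 7 of 16 passed, all positive, and in that on moody 6 positive and 1 negative. On nrv2 5 were positive, on Nrx-IV 4, on Gs2 2, and on Eaat2 1 was positive and 1 negative. Over all genes 27.8% passed in the fit on Gat, 33% on moody, 9.08% on nrv2, 15.6% on Nrx-IV, 15.1% on Gs2 and 23.9% on Eaat2, so the counts on Gs2 and Eaat2 were below the share of all genes. Pck, a claudin-like protein of the junction, had r = 0.26 with Gat, 0.25 with moody, 0.16 with Gs2 and 0.12 with Nrx-IV. Lac (Lachesin) had r = 0.18 with nrv2, 0.12 with Gs2, 0.11 with Gat and 0.10 with moody. Cont (contactin), which binds Nrx-IV in the junction complex, had its largest value with Nrx-IV (r = 0.24, adjusted p = 2.38e-06), beside 0.16 with nrv2 and 0.13 with Gat. Outside the rule for named genes, cold, needed for junction assembly, had r = 0.25 with Nrx-IV, and Atpalpha, the alpha subunit that pairs with nrv2, had r = 0.14 with nrv2 (adjusted p = 0.0114). Most of these calls did not stand when 10 further components were removed, when 2 of 16 (12.5%) were positive on each of Gat, moody, nrv2 and Nrx-IV. In that setting 12.8% of all genes passed on Gat, 4.81% on moody, 9.37% on nrv2 and 7.67% on Nrx-IV. On Gat, moody and Nrx-IV the share of all genes therefore fell as well.

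Of the G protein genes around moody, 8 of 9 were measured and 3 passed in the fit on moody, near the 33% of all genes that did. Tre1, a receptor close in sequence to moody, was positive (r = 0.19), and Galphao, a G protein alpha subunit, was negative (r = -0.16, with -0.20 for Gat). Ggamma1 had r = 0.073 with moody and passed with Nrx-IV (0.22) and Eaat2 (0.18). With 10 further components removed none of the 8 passed on moody, where 4.81% of all genes did.

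Glutamate and GABA genes were measured for 14 of 16. They met Eaat2 mainly from the other side, with 6 negative and 1 positive in that fit, where 12.7% and 11.2% of all genes passed. Beside Gs1, the negative ones include the GABA-B receptors GABA-B-R1 (r = -0.16), GABA-B-R2 (-0.16) and GABA-B-R3, and the positive one was Gdh, the glutamate dehydrogenase (0.19). On Gs2 3 were negative and none positive, where 8.02% and 7.05% of all genes passed. On Gat 3 were positive and none negative, near the 16.1% of all genes that were positive there, among them Gabat, the GABA transaminase that breaks down GABA (r = 0.11 with Gat, 0.18 with nrv2). With 10 further components removed 3 of the 6 negative genes remained so on Eaat2, none passed on Gs2, and on Gat 1 was positive and 1 negative. The share of all genes that passed was then 5.40% on Eaat2, 3.75% on Gs2 and 12.8% on Gat.

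**Figure D5:**
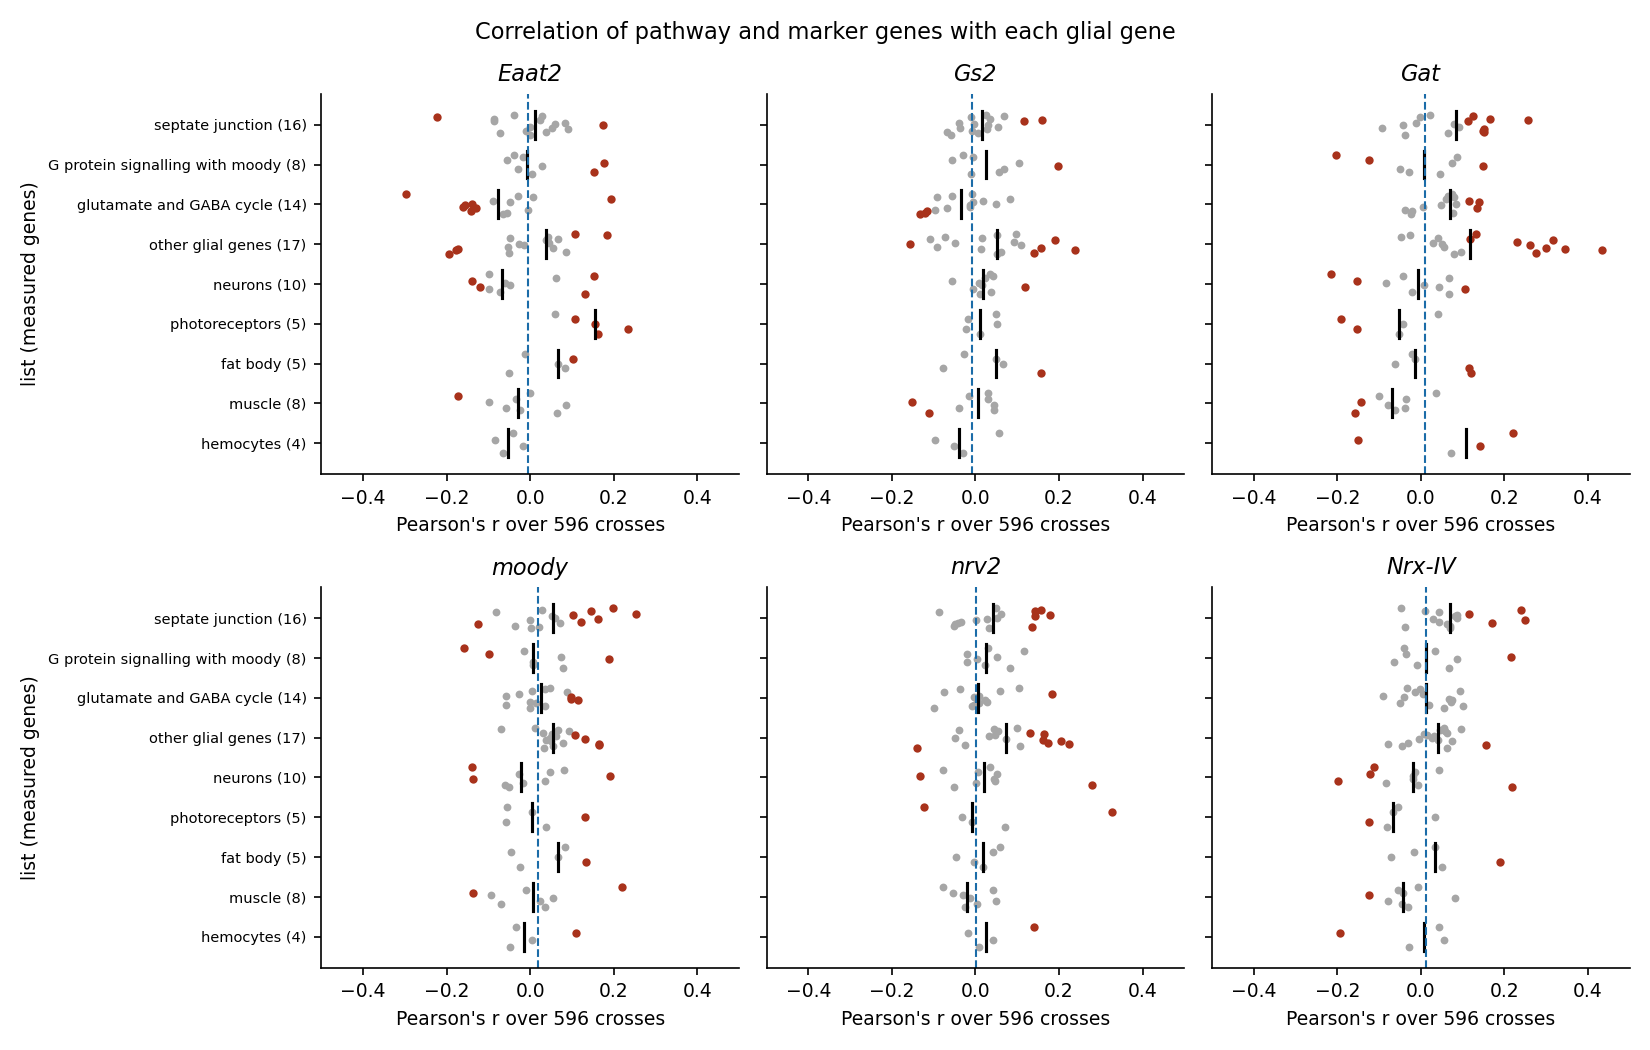
Pearson's r over 596 crosses of every measured gene of 9 lists (rows, with the number of genes) with each glial gene (panels); red marks an adjusted p under 0.05, the black bar the median of the list and the dashed blue line the median of all genes. Other glial genes reach 0.43 in the panel of Gat, photoreceptor genes lie to the right in that of Eaat2, and most other lists straddle the line.

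Markers of the other cells of the head were read the same way, against the 27.8% of all genes that passed in the fit on Gat, 33% on moody, 23.9% on Eaat2, 15.6% on Nrx-IV, 15.1% on Gs2 and 9.08% on nrv2. Each list holds only 4 to 10 measured genes. Of 5 measured photoreceptor genes, 4 passed with a positive r on Eaat2 (median over the 5 of 0.15). They were led by inaD, the scaffold of the phototransduction complex, at 0.23, with norpA at 0.15 and ninaC at 0.11. On Gat 2 were negative, ninaC at -0.19 and inaD at -0.15. With 10 further components removed 2 of the 5 passed on Eaat2, where 5.40% of all genes did, and 0 on Gat, where 12.8% did. Neuronal genes, 10 of 10 measured, passed on Gat as 1 positive and 2 negative (30%), near the share of all genes. The positive one was cac at 0.11. The negative ones were elav, the pan-neuronal RNA-binding protein, at -0.21 and brp, a protein of the presynaptic active zone, at -0.15. With 10 further components removed 1 of the 10 passed on Gat, with a positive r. On Eaat2 the neuronal genes were 2 positive and 2 negative. On Nrx-IV they were 1 and 3, with Csp at 0.22 and para, the sodium channel, at -0.20. On moody they were 1 and 2, with Appl at 0.19 and elav lowest at -0.14. On nrv2 they were 1 and 1, with Syx1A at 0.28 and Appl at -0.13, and on Gs2 1 and 0. Cac, Csp, Appl and Syx1A are outside the rule for named genes. Muscle genes passed on Gat as 0 positive and 2 negative of 8 (25%), near the share of all genes, with Tm2 at -0.14 and sls at -0.16. With 10 further components removed 3 of the 8 passed on Gat, all negative, where 12.8% of all genes passed. On moody 1 of the 8 was positive and 1 negative (median 0.0066), with Mhc, the muscle myosin, at 0.22 and up, a troponin subunit, at -0.14. Of 5 fat body genes, 2 were positive on Gat, apolpp and Apoltp at 0.12 each, while the 3 yolk protein genes lay between -0.063 and -0.013 and the median was -0.013. None of the 5 passed on Gat with 10 further components removed, where 12.8% of all genes did. Of 4 hemocyte genes, 2 were positive and 1 negative on Gat, with NimC1 at 0.22, Pxn at 0.14 and srp at -0.15. The part of these cell types in the correlations of the glial genes was not tested.

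A property of the crosses also moved with the genes. The median value of a cross over all genes, which ran from -0.28 to 0.64, had r = 0.34 with moody, -0.14 with Eaat2, 0.097 with Gat, 0.071 with Nrx-IV, 0.049 with nrv2 and -0.033 with Gs2. With this median as a covariate Gs2 and Gat had r = 0.34, Gat and nrv2 0.28 and Gat and moody 0.17 (adjusted p = 0.000909), while Gat and Nrx-IV no longer passed (adjusted p = 0.0612).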

How the data were processed

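Per the labels, the arrays were processed with oligo and RMA; per the methods, the authors then removed subpopulation and 10 principal components and set the residuals of each transcript onto a normal distribution. The deposited values are thus a score with no unit (11064 transcript rows, SD of a row between 0.983 and 1.01). Rows of a gene were averaged to 7422 genes and scaled to unit SD (each glial gene has 1 row). Of these, 7349 matched a symbol in the RefSeq Release 6 annotation. Every gene was fitted on each glial gene with limma 3.58.1 (R 4.3.3), with Benjamini-Hochberg adjustment within a fit, and a pair was called if the larger of its 2 adjusted p was under 0.05. Permutation tests were two-sided, with 100000 permutations. Intervals are 95%. Differences between subpopulation crosses were tested with limma interactions and absolute deviations, and founder classes (seen in at least 2 crosses) with an F test. Founder assignments and local peaks came from parts of the study's supplementary lists. The limma fits were tested on simulated data. Named genes were all glial genes, per glial gene the 2 largest positive and 2 largest negative correlations that passed, the nearest measured neighbours, and per list the 3 genes passing in the most fits. The members and lists were chosen with earlier results of these data known. Array slide was not analysed as a batch, and a scale without signal gives no brightness over background, so the number of crosses sets the precision. Alternatives were ranks, 10 further components removed, the median of each cross or the subpopulation cross as covariate, each subpopulation cross alone, transcript rows, and identical rows entered once.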

Additional observations from a re-analysis of the deposited data

How the results depend on the processing

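The count of 6 called pairs of glial genes lay between 4 and 6 under all alternatives but pA2 by pB1 alone, with fewer crosses, where it was 2. With 10 further components removed, 3 of the 6 pairs stayed called (Gs2 with Gat, Gs2 with nrv2, Gat with nrv2), and Eaat2 with moody was added as a negative pair. Of the 2 called pairs without Gat, 1 remained with Gat as a covariate, an alternative chosen after seeing the data. With 10 further principal components removed, the correlation of Gat and Nrx-IV turned to -0.016; the cause was not tested. The share of the first component of the glial genes was 27.8% in pA1 by pB2 alone and between 25.9% and 27.3% in the other alternatives. Among the single correlations, 45 values kept direction and side of the threshold, 10 fell below it and 1 reversed, while 6 values without the 2 most distant crosses kept their direction and had no adjusted p. The share of genes that passed in a fit fell with 10 further components removed from 23.9% to 5.40% on Eaat2, 15.1% to 3.75% on Gs2, 27.8% to 12.8% on Gat, 33% to 4.81% on moody and 15.6% to 7.67% on Nrx-IV, and was 9.08% and 9.37% on nrv2. In pA2 by pB1 alone, with fewer crosses, the shares were 0.458%, 4.58%, 9.53%, 3.4%, 0.539% and 5.58% in the same order, and in pA1 by pB2 alone 7.47% on Gs2, 5.26% on nrv2 and 9.78% on Nrx-IV. With the cross median as covariate moody had 22%. The 15 slope calls on Gat became 0 and the 69 on nrv2 became 14 on ranks, each was 0 with 10 further components removed, and Gs2 then had 3. Each glial gene had a single row, so the planned comparison of isoforms could not be made, and entering transcript rows or identical rows once left each r as it was. No paired analysis was possible because the values used here hold 1 set per cross and replicate numbers only name crosses. Apart from the jackknife SEs, no result was run with each sample left out in turn, since the groups are large.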
